A study of Homo sapiens with 6 samples.

Results

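The deposited expression table of human embryonic stem cells depleted of DDX18 was examined for its long intergenic noncoding RNAs, taken as the genes whose official symbol is LINC followed by a number, together with LINC-ROR. Of 175 such genes in the table, 169 were selected on their measured level, a normalized value of at least 1 in at least 2 of the 6 libraries, out of 17768 genes of all kinds that met the same threshold. The cells were the established human embryonic lines H9 and HES2, grown on irradiated mouse embryonic fibroblasts as feeders. DDX18, a nucleolar helicase of the DEAD-box family, was targeted by viral short hairpin RNA, and cells were collected on day 4. From each line came 1 library with shLuc, the control hairpin, 1 with shDDX18#1 and 1 with shDDX18#3. H9 is replicate 1 and HES2 is replicate 2 of every arm, so the 4 knockdown libraries and the 2 shLuc libraries are made of the same 2 lines, and all 6 carried a hairpin virus. The labels do not say that libraries came from separate cultures, and the p-values cover only the spread among these 6, which may be technical.

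Long intergenic noncoding RNAs are transcribed from their own promoters, spliced and usually polyadenylated like messenger RNAs, but carry no long reading frame. Most are expressed at low level and in few cell types. In human pluripotent cells many of them contain pieces of HERV-H, a family of endogenous retroviruses whose long terminal repeats act as promoters in these cells, and some bind pluripotency factors or are bound by them at their genes. LINC-ROR, the "regulator of reprogramming", is the best known, and ESRG, a HERV-H-derived RNA without a LINC number, is among the most abundant.

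Several of the most abundant LINC transcripts share a stretch of sequence with ESRG, which is described first because the line comparison below and the assignment of reads both touch it. In a search of the GENCODE v29 transcripts with BLAST on the sense strand, 9 of the 169 genes had a stretch of at least 150 aligned bases at 80% identity or more with an ESRG transcript: LINC-ROR, LINC00458, LINC00678, LINC00836, LINC00882, LINC01356, LINC02474, LINC02582 and LINC02617. These are 5.33% of the members, and among all 16060 noncoding genes searched 38, or 0.237%, had it. Of the 2666 other noncoding genes that met the same level threshold 18 had it, or 0.675%. The longest alignment was that of LINC02582, 427 bases at 91.8% identity, and the shortest that of LINC02474, 152 bases at 94.7%. The search was chosen after values had been seen. A short read from such a stretch can fit several genes, and how many reads did was not measured. How the authors' counting treated reads with several placements is not given in the sources used here. The values of these 9 genes are uncertain to that extent. Matches on the antisense strand were not searched for and the library kit does not keep strand, so other genes may be affected too.

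Levels are given as the deposited signal, that is reads per 1000000 of an effective library size, called CPM here. The libraries held between 2668179 and 4271741 reads, so 3 reads, taken as the floor of detection for counting error only, correspond to 0.671 to 1.23 CPM. In H9 the targeted gene DDX18 had 153 CPM with shLuc, 19.2 with shDDX18#1 and 47.3 with shDDX18#3, and in HES2 161, 39.3 and 60.4 CPM in the same order, lower in every knockdown library than in either control. Of the fixed markers of pluripotent stem cells 8 of 10 fell with knockdown, none was at 0, and their summed level was 5301 to 5647 CPM in the shLuc libraries and 1936 to 2883 CPM in the knockdown libraries. Markers of fibroblasts or feeders rose in 6 of 10, with a sum of 542 to 1831 CPM in shLuc and 2618 to 36306 CPM in knockdown libraries. Markers of endoderm rose in 5 of 7, those of mesoderm fell in 3 of 5, and those of neural and trophoblast cells rose in 2 of 5 and 1 of 4. In bulk RNA fewer cells of a type and less RNA per cell cannot be told apart, and the part of these shifts in the changes below was not tested.

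The LINC genes together held little of the RNA, and 1 gene held much of that. Their summed level was 1714 CPM in H9 shLuc, 1394 in H9 shDDX18#1, 1544 in H9 shDDX18#3, 1729 in HES2 shLuc, 1270 in HES2 shDDX18#1 and 1317 in HES2 shDDX18#3. In each line the control was the highest library. LINC00458 alone made up between 25.4% and 29.1% of this sum in every library. Of the members, 35 had a mean below 1 CPM and 104 below 3 CPM, and 23 reached 10 CPM. Per kilobase of annotated exon their median was 0.809 CPM, against 5.21 CPM for the 13948 protein-coding genes tested. By this measure LINC00458 was the highest at 164 CPM per kilobase, followed by LINC00678 at 75.01, LINC01356 at 59.2 and LINC01108 at 22.3. The 39 genes just inside the threshold reached 1 CPM in exactly 2 libraries, such as LINC00173 at 1.62 CPM in H9 shDDX18#3 and 1.11 in HES2 shDDX18#3. The 6 just outside reached it in 1 library, among them LINC01426 with its highest value of 1.11 CPM in HES2 shDDX18#3. Because the threshold uses level, 25 members passed it only through the knockdown libraries and 4 only through shLuc, 16 only through H9 and 16 only through HES2.

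All 169 have an entry in GENCODE v29, where 133 are classed as lincRNA, 17 as processed transcripts, 10 as antisense and 2 as bidirectional promoter transcripts, and 7 as transcribed pseudogenes (6 unprocessed and 1 unitary). They lie on 23 chromosomes, with the most, 19, on chromosome 1 and 18 on chromosome 12. The library kit does not keep strand, and 66 members share exon bases with another gene, 24 of them with a protein-coding gene, so that reads of such pairs cannot be told apart.

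With DDX18 knockdown 6 LINC genes rose and 6 fell (limma, Benjamini-Hochberg adjusted p under 0.05 over all 17768 genes, line as a block). Of these, 1 that rose (LINC00571) and 1 that fell (LINC01234) had passed the level threshold only through the arm where they are high, so their values are a description and not a test result. With these included, the calls are 3.55% of the members in each direction. Of all genes tested, under the same threshold, 9.6% rose and 6.26% fell. Low level goes with few calls in the whole table: of all genes between 1 and 3 CPM 2.93% rose and 1.66% fell, and of those at 100 CPM and over 15.7% rose and 16.1% fell. The median log2 fold change was -0.01 over members and -0.02 over all genes, every limma fold change being on the log2(CPM + 1) scale. The 4 knockdown values lay wholly above both shLuc values for 23 members (13.6%) and wholly below for 18 (10.7%), against 19.8% and 20.9% of all genes. The plot of change against level shows these calls.

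**Figure D1:**
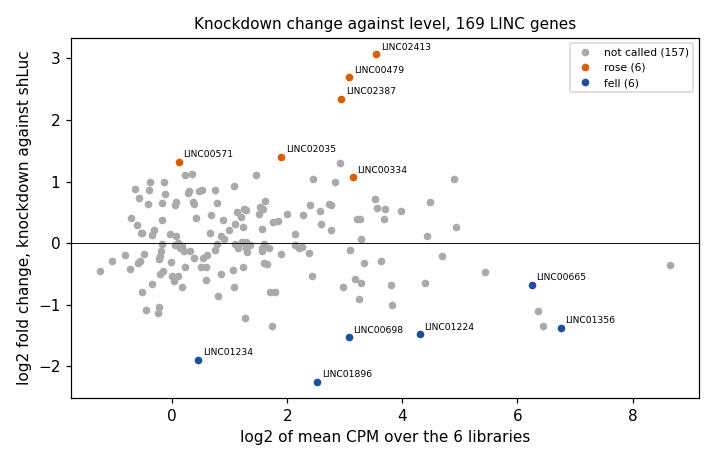
Each point is 1 of the 169 LINC genes, by the log2 of its mean CPM over the 6 libraries and its log2 fold change with knockdown. The 6 that rose (orange) and the 6 that fell (blue) are named, and 10 of these 12 have a mean of at least 3 CPM.

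The largest rise was that of LINC02413 (ENSG00000257345, chromosome 12). In H9 its level was 1.66 CPM with shLuc, 35.5 with shDDX18#1 and 11.3 with shDDX18#3, and it was 0.224, 14.8 and 6.4 CPM in HES2 in the same order. Both lines thus had their highest value with shDDX18#1 and no knockdown library reached down to a control. It rose by 3.07 on the log2 scale, SE 0.48 (limma adjusted p = 0.00805). In the authors' deposited table the log2 fold change is 4.26, which comes from their own fit and is not directly comparable with 3.07 on the log2(CPM + 1) scale. LINC00479 (ENSG00000236384, chromosome 21) stood at 1.11, 14.7 and 10.05 CPM in H9 and 0.894, 15.1 and 8.91 CPM in HES2, so that the lines nearly matched arm by arm. It rose by 2.69 on the log2 scale (SE 0.32, limma adjusted p = 0.00318). LINC02387 (ENSG00000256232, chromosome 12) went from 1.38 to 13.1 and 4.54 CPM in H9 and from 0.894 to 18.0 and 8.08 CPM in HES2. Its log2 fold change was 2.34 (SE 0.48, limma adjusted p = 0.0188).

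The other 3 rises were smaller. LINC02035 (ENSG00000273033, chromosome 3) stood at 1.11, 5.72 and 3.57 CPM in H9 and 1.34, 6.44 and 4.18 CPM in HES2, a log2 fold change of 1.4 (limma adjusted p = 0.0286). LINC00334 (ENSG00000182586, chromosome 21) stood at 5.81, 11.8 and 9.4 CPM in H9 and 3.58, 12.9 and 9.19 CPM in HES2, a log2 fold change of 1.07 (limma adjusted p = 0.0432). LINC00571 (ENSG00000223685, chromosome 13) had no read in either control. It stood at 2.04 and 2.59 CPM in H9 and 1.29 and 0.557 CPM in HES2 with shDDX18#1 and shDDX18#3, and it is among the genes that passed the level threshold only through the knockdown libraries. Against a floor of 3 reads per library it was at least 2.16-fold higher with knockdown, and its call was lost when any 1 library was left out.

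Among the falls LINC01896 (ENSG00000263146, chromosome 18) was the largest. In H9 it had 13.8 CPM with shLuc, 1.63 with shDDX18#1 and 3.24 with shDDX18#3, and it stood at 12.3, 2.25 and 1.11 CPM in HES2. The controls of the lines lay close together and all 4 knockdown values were far below them. The log2 fold change was -2.25 (SE 0.35, limma adjusted p = 0.00743). LINC01224 (ENSG00000269416, chromosome 19) fell in the same way, from 34.6 to 9.8 and 13.0 CPM in H9 and from 35.1 to 9.98 and 15.6 CPM in HES2, a log2 fold change of -1.48 (limma adjusted p = 0.0099). LINC01356 (ENSG00000215866, chromosome 1) was the second most abundant member. It went from 140 to 46.1 and 56.1 CPM in H9 and from 225 to 84.3 and 96.3 CPM in HES2, a log2 fold change of -1.38 (SE 0.15, limma adjusted p = 0.00274), and it was called in all 16 alternative analyses run.

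LINC00665 (ENSG00000232677, chromosome 19) changed least of the called genes. It stood at 118, 66.6 and 68.4 CPM in H9 and 86.7, 53.4 and 64.0 CPM in HES2, a log2 fold change of -0.68 (limma adjusted p = 0.0236). LINC00698 (ENSG00000244342, chromosome 3), on the fixed list of RNAs linked to embryonic stem cells, stood at 6.37, 3.68 and 3.24 CPM in H9 and 27.7, 4.18 and 5.29 CPM in HES2. Its controls differed more from each other than any knockdown value did from the H9 control, and the log2 fold change was -1.53 (limma adjusted p = 0.0357). It was -0.73 without HES2 shLuc (limma adjusted p = 0.361) and -2.33 without H9 shLuc. LINC01234 (ENSG00000249550, chromosome 12) stood at 2.21 CPM in H9 shLuc and 5.14 in HES2 shLuc, and at 0 with shDDX18#1 in both lines. With shDDX18#3 it had 1 read in H9 and 2 in HES2. It passed the level threshold only through the shLuc libraries. All 12 called genes had the same direction in all 4 knockdown libraries. For LINC00571 and LINC01234 the threshold favoured that direction, so it and the calls counted for them here describe the values only. Of the members, 33 (19.5%) were higher and 30 (17.8%) lower than their own control in all 4, against 25.8% and 27.9% of all genes. With a shLuc library left out the rises numbered 1 (without H9) and 0 (without HES2) and the falls 2 and 1, and without H9 shDDX18#3 there were 11 falls. Over the 6 libraries left out in turn the call was kept 6 times by LINC01356, 5 by LINC00479, 4 by LINC01896, LINC01224, LINC01234, LINC02387 and LINC02413, 3 by LINC00665 and LINC00698, 2 by LINC02035 and 1 by LINC00334.

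**Figure D2:**
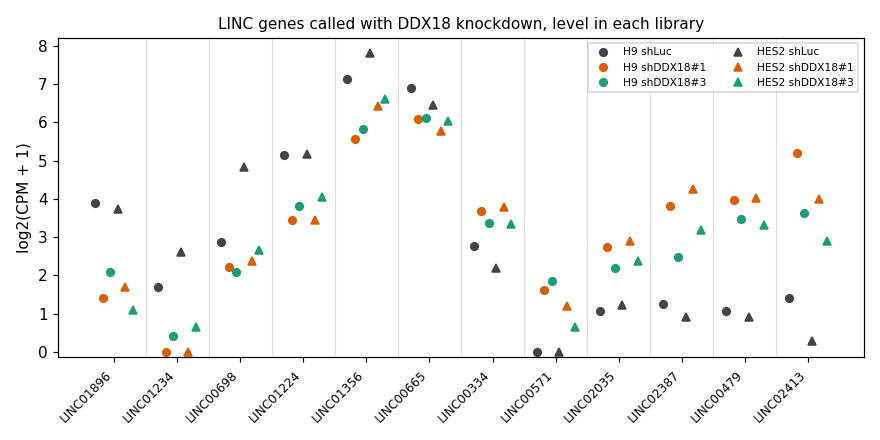
Level of the 12 called LINC genes as log2(CPM + 1) in each of the 6 libraries, circles for H9 and triangles for HES2, with the arm in colour. The shLuc points (grey) lie above both knockdown arms of their line for the 6 genes on the left and below them for the 6 on the right.

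The other members on the list of stem cell RNAs were abundant but did not pass the test. LINC-ROR (ENSG00000258609, chromosome 18) stood at 46.0, 15.1 and 36.6 CPM in H9 and 10.95, 5.79 and 11.7 CPM in HES2, with the lower value under shDDX18#1 in each line and shDDX18#3 near or above its control in HES2. Its log2 fold change with knockdown was -0.65 (SE 0.39, limma adjusted p = 0.286). LINC00458 (ENSG00000234787, chromosome 13), an RNA reported to bind SOX2, stood at 490, 354 and 394 CPM in H9 and 448, 343 and 384 CPM in HES2. All 4 knockdown values were below both controls, by -0.35 on the log2 scale (limma adjusted p = 0.124). LINC00678 (ENSG00000254934, chromosome 11) stood at 135, 47.4 and 109 CPM in H9 and 144, 26.4 and 63.2 CPM in HES2, a log2 fold change of -1.34 (limma adjusted p = 0.0647). LINC01108 (ENSG00000226673, chromosome 6) stood at 110, 63.7 and 112 CPM in H9 and 132, 26.1 and 51.0 CPM in HES2, a log2 fold change of -1.1 (limma adjusted p = 0.0897). In H9 shDDX18#3 it was as high as the control. Of the 6 symbols on this list 5 are members and 1 of these, LINC00698, passed the test. The remaining symbol, LINC00617, is not a member, and whether its gene was measured under another name is not covered here. DESeq2 on the recovered reads also called LINC00678 and LINC01108 as fallen.

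Of the other fixed lists, none of the 8 listed LINC symbols of genes known to encode small proteins is a member. Whether any member encodes a small protein was not examined. Of those with a known role, LINC00467 was at 19.1, 5.72 and 8.43 CPM in H9 but 16.8, 18.3 and 15.04 CPM in HES2, and its log2 fold change was -0.67 (limma adjusted p = 0.203). LINC00599, which hosts miR-124-1, was between 0.322 and 2.92 CPM, and LINC00511, with a log2 fold change of 0.86 (limma adjusted p = 0.198), between 0.224 and 2.9 CPM. Among the 8 highest members were also LINC01578, LINC01405 and LINC00667. LINC01578, beside CHD2 and also named CHASERR, was at 47.3, 33.5 and 35.3 CPM in H9 and 59.0, 52.5 and 33.7 CPM in HES2 (log2 fold change -0.46, limma adjusted p = 0.148). LINC01405 (ENSG00000185847) stood at 14.95, 49.0 and 50.6 CPM in H9 and 17.2, 28.96 and 18.9 CPM in HES2, above both controls in all 4 knockdown libraries, with an adjusted p just over the threshold (limma adjusted p = 0.0518). LINC00667 stood between 23.7 and 36.4 CPM (limma adjusted p = 0.388).

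Counted by reads, several members were at 3 reads or more in 1 arm only. LINC01234, LINC02523 and LINC02367 reached the floor in shLuc libraries only. Another 15, with LINC00571, LINC00379 and LINC00472 at the highest fold changes, reached it in knockdown libraries only. There are 4 knockdown libraries and 2 shLuc libraries, so the floor is reached more easily in the knockdown arm. The same counts over all genes were not made, so these numbers are no result about LINC genes. By the same floor 9 members were detected in H9 only, among them LINC00836 and LINC01614, and 12 in HES2 only, among them LINC01487. For the genes named in 1 arm only, at most 5.14 CPM for LINC01234 and 4.18 CPM for LINC00379, a library without reads does not show absence.

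For comparison, 30 of 38 listed noncoding RNAs without a LINC number were tested, of which 7 rose and 5 fell, with a median log2 fold change of 0.25. Of all genes tested 9.6% rose and 6.26% fell. Of 2648 tested noncoding genes outside the LINC genes and without the stretch, 142 rose and 61 fell. The list holds known RNAs and was not matched to the LINC genes in level, so its counts are no result about noncoding RNAs. MIR22HG stood at 11.6, 54.3 and 36.6 CPM in H9 and 9.84, 38.6 and 33.7 CPM in HES2 (log2 fold change 1.81, limma adjusted p = 0.0031). NEAT1, the RNA scaffold of paraspeckles, stood at 14.1, 118 and 48.6 CPM in H9 and 12.7, 55.3 and 31.7 CPM in HES2 (log2 fold change 1.99, limma adjusted p = 0.0142). LNCPRESS1, linked to the pluripotent state, stood at 55.6, 15.5 and 29.2 CPM in H9 and 46.3, 11.3 and 20.6 CPM in HES2 (log2 fold change -1.44, limma adjusted p = 0.0211).

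Between the lines, 3 members were higher in HES2 and 4 lower (limma with the arm as a block), 1.78% and 2.37% of members, where 1.44% of all genes were higher and 3.98% lower. Of these 7, LINC00836 and LINC01614 had passed the level threshold only through H9 and LINC01487 only through HES2. Their line differences are therefore given as values without a test, and calls counted for them below are a description. The HES2 libraries lay wholly above the H9 libraries for 13 members (7.69%) and wholly below for 16 (9.47%), against 7.78% and 6.56% of all genes. LINC02582 (ENSG00000261780, chromosome 18) stood at 11.1, 25.3 and 30.5 CPM in H9 and at 0.671, 1.29 and 0.557 CPM in HES2 for shLuc, shDDX18#1 and shDDX18#3. The lines were far apart in each arm, with a log2 difference of -3.57 and SE 0.34 (limma adjusted p = 0.00103). LINC00836 (ENSG00000280809, chromosome 10) stood at 4.71, 18.4 and 8.43 CPM in H9 and had no read in HES2, which makes it at least 12.75-fold higher in H9 against a floor of 3 reads per library.

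LINC-ROR was lower in HES2 in every arm, by -1.6 on the log2 scale (SE 0.21, limma adjusted p = 0.00475). LINC01614 (ENSG00000230838, chromosome 2) stood at 0.831, 10.2 and 5.51 CPM in H9 and had no read in HES2, at least 6.7-fold higher in H9. In H9 the summed fibroblast or feeder markers were 1831, 36306 and 11556 CPM in the same order of arms, and 542, 3356 and 2618 CPM in HES2, and their part in the LINC01614 values was not tested. Higher in HES2 were LINC01356, by 0.77 (SE 0.12, limma adjusted p = 0.00786), LINC02210, from 0.817 to 1.95 CPM in H9 and from 4.5 to 5.37 CPM in HES2 (limma adjusted p = 0.0365), and LINC01487, from 0.277 to 0.408 CPM in H9 and from 1.93 to 3.58 CPM in HES2. LINC02210 shares 418 exon bases with the coding readthrough LINC02210-CRHR1. The line calls moved with single libraries: leaving out a shLuc library gave 6 higher and 14 or 15 lower, and leaving out either shDDX18#3 library gave 0 and 1. Over the 6 libraries left out in turn the call was kept 6 times by LINC02582, 4 by LINC-ROR, LINC01356 and LINC00836, 2 by LINC01614 and LINC02210 and 0 by LINC01487.

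Of the 7 genes called between the lines, 4 carry a stretch shared with ESRG: LINC-ROR, LINC00836 and LINC02582, lower in HES2, and LINC01356, higher. This count is a description, since LINC00836, and LINC01614 and LINC01487 among the 7, passed the threshold through 1 line only. The median difference between lines was -0.75 over the 9 genes with the stretch and -0.01 over the 160 without. Outside the LINC genes, 18 tested noncoding genes carry the stretch, of which 7 were lower and 1 higher in HES2, where among 2648 tested noncoding genes without it 51 were lower and 12 higher. ESRG (ENSG00000265992) stood at 1146, 488 and 978 CPM in H9 and 636, 212 and 392 CPM in HES2, lower in HES2 by -1.12 on the log2 scale (limma adjusted p = 0.00215). With knockdown, 1 of the 9 LINC genes with the stretch fell, LINC01356, and none rose, and of the 18 others 5 fell and none rose (limma), where of the 2648 noncoding genes without it 61 fell and 142 rose. The median log2 fold change with knockdown was 0.01 over the 9, -0.01 over the 160 LINC genes without the stretch and -0.73 over the 18. ESRG itself had a log2 fold change of -0.94 (limma adjusted p = 0.0855). The part of reads shared between the copies in these values was not tested. The 9 genes made up 48.8% of the summed LINC level in H9 shLuc and 37.8% and 42.2% in its knockdown libraries, and 48.4%, 36.8% and 42.8% in HES2.

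**Figure D3:**
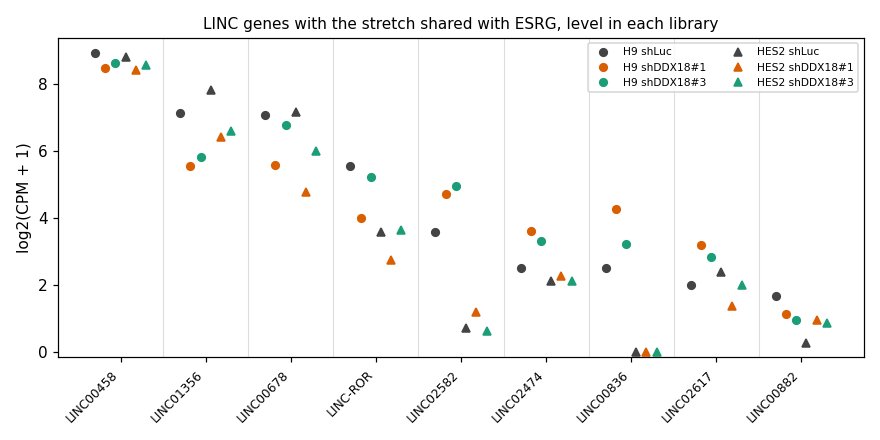
Level of the 9 LINC genes with the stretch shared with ESRG, as log2(CPM + 1) in each of the 6 libraries, ordered by mean level. HES2 (triangles) lies below H9 (circles) in every arm for LINC-ROR, LINC02582 and LINC00836, and LINC00836 is at 0 in all 3 HES2 libraries.

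Among the 64 other members with a mean of at least 3 CPM, the 5 closest to LINC-ROR over the 6 libraries by Pearson correlation on log2(CPM + 1) were LINC00707 (r = 0.892), LINC01278 (0.884), LINC00987 (0.877), LINC01194 (0.835) and LINC01572 (0.741). These are descriptions over 6 points that share 2 lines and 3 arms.

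No member was called as different between the hairpins or in its response between the lines. The limma test of shDDX18#3 against shDDX18#1 called 0% of all genes, and 18 members (10.7%) had an unadjusted p under 0.05, against 14.3% of all genes. edgeR called 0 members and DESeq2 1, LINC00678. The smallest adjusted p was that of LINC00678, which was higher with shDDX18#3 by 1.21 on the log2 scale (SE 0.23, limma adjusted p = 0.12), followed by LINC02413, lower by -1.33 (0.145), and LINC-ROR, higher by 1.06 (0.147). For each of these the shDDX18#3 libraries were nearer to the control than the shDDX18#1 libraries, as they were for DDX18. The knockdown effect differed between HES2 and H9 for 0% of all genes, 9 members (5.33%) had an unadjusted p under 0.05, against 4.43% of all genes, and edgeR and DESeq2 each called 0 members. LINC01614, LINC01137 and LINC01124 had the smallest unadjusted p. LINC01124 stood in H9 at 4.15, 0 and 0.973 CPM and in HES2 at 1.79, 3.22 and 2.51 CPM, and its unadjusted limma p was 0.0209. Its knockdown fold change over both lines, -0.71 on the log2 scale, was 0.46 without H9 shLuc. Of the 169 members, 29 (17.2%) had both H9 knockdown libraries on the other side of their control from both HES2 libraries, as had 12% of all genes.

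Several of the called genes lie beside a coding gene that moved the same way. All 12, counted with LINC00571 and LINC01234 whose own changes are a description only, have a tested nearest protein-coding neighbour in GENCODE v29. Of the 12 neighbours 9 had the same sign as the LINC gene, and 7 were called, each in its direction. The 7 are 58.3%, where 16.4% of the neighbours of the 116 other members with a tested neighbour and 15.9% of all genes were called. Among the 7 is POFUT2, which shares exon bases with LINC00334, and the part of shared reads in that pair was not tested. Over the 128 pairs the log2 fold changes of member and neighbour had a Pearson r of 0.335 (Spearman 0.29), which is across genes of the same 6 libraries, and 72 pairs had the same sign. For differences between the lines r was 0.118. With the nearest gene that does not overlap the member r was 0.351. Without the members that share exon bases with a coding gene r was 0.309 over 112 pairs. With the nearest gene that does not overlap it was then 0.298 over 110 pairs. The pairs that start close together in opposite directions (divergent) numbered 17, and 14 of them had the same sign. Of their neighbours 3 were called, or 17.6%, near the share of all genes.

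**Figure D4:**
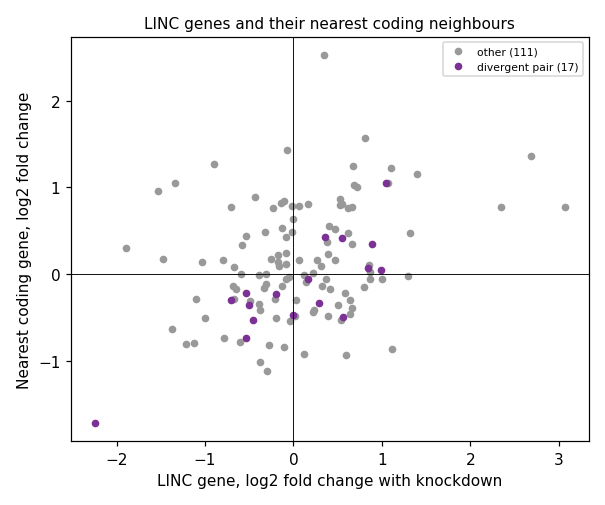
Log2 fold change with knockdown of each LINC gene against that of its nearest protein-coding gene, for 128 pairs, with the 17 divergent pairs in purple. The lower left point of the divergent pairs is LINC01896 with SALL3.

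The pair LINC01896 and SALL3, a gene of a zinc finger transcription factor, fell together. SALL3 stood at 122, 18.8 and 42.8 CPM in H9 and 70.0, 20.9 and 34.5 CPM in HES2, a log2 fold change of -1.71 (limma adjusted p = 0.0183). In the RefSeq promoter table (GRCh38.p14), where 114 of the 169 members matched, their starts lie 127 bases apart on opposite strands, so that 226 of the 300 bases printed here belong to both promoters. The window runs from 250 bases before to 50 after the start of LINC01896, chr18:78979642-78979941 on the minus strand, and is shown because both genes of the pair fell. Capitals mark a match to TATAAA, here on the strand of SALL3.
LINC01896 promoter: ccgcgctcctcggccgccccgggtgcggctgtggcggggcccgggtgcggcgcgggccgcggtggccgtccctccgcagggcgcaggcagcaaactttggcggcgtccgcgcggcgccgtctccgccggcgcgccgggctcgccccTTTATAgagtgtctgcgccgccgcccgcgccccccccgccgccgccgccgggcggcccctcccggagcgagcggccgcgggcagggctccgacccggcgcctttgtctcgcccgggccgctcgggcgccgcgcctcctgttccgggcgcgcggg
Its G and C content is 84% with 59 CpG, against medians of 57% and 13 over the matched members and 58.3% and 14 over all 27305 promoters of the table. The letters TATAAA were found on either strand in 16.7% of member promoters and in 12% of all. The octamer ATGCAAAT was in 0.877% and 1.8%, TGANTCA of the AP-1 factors in 10.5% and 7.76%, and GGAATG of the TEAD factors in 9.65% and 14%.

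On chromosome 21, LINC00205 and LINC00334 flank POFUT2, an O-fucosyltransferase gene. POFUT2 stood at 33.2, 112 and 63.9 CPM in H9 and 42.0, 84.3 and 64.0 CPM in HES2, a log2 fold change of 1.06 (limma adjusted p = 0.0292). LINC00205 stood at 1.94, 5.72 and 4.86 CPM in H9 and 3.58, 10.3 and 6.4 CPM in HES2, a log2 fold change of 1.05 that missed the threshold (limma adjusted p = 0.0531). LINC00334 shares 310 exon bases with POFUT2 on the opposite strand, so its reads and those of POFUT2 cannot be told apart there. The starts of LINC00205 and POFUT2 lie 157 bases apart, and the promoter of LINC00205, chr21:45287802-45288101 on the plus strand, is shown as the shared start of this pair. It holds none of the 4 motifs and is 72.3% G and C with 34 CpG.
LINC00205 promoter: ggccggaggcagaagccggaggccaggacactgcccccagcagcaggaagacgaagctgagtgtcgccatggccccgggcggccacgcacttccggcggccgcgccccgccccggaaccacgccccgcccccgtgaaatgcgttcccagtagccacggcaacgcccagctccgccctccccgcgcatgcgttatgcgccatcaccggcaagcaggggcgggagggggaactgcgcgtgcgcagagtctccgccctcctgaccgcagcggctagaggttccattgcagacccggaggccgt
The other neighbours that rose with their LINC gene were RIPK4, a kinase of epidermal differentiation, 23594 bases from LINC00479 (5.26, 19.2 and 12.3 CPM in H9, 9.17, 30.6 and 19.8 CPM in HES2, log2 fold change 1.36), DIRC2, a lysosomal transporter, 5802 bases from LINC02035 (1.15), DENND5B 12922 bases from LINC02387 (0.77) and EEA1, a tether of early endosomes, 69887 bases from LINC02413 (0.77). SLC16A1, a lactate transporter, 61204 bases from LINC01356, fell with it (-0.63, limma adjusted p = 0.0344). BDNF, 20266 bases from LINC00678, rose by 1.05 (limma adjusted p = 0.0386) while LINC00678 had a negative fold change.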

How the data were processed

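RNA of 6 libraries, 2 cell lines by 3 hairpin arms, was sequenced after preparation with a TruSeq RNA kit, per the labels. Per the submitters' processing notes edgeR 3.26.8, HTSeq 0.11.2, SAMtools 1.9 and Bowtie2 2.3.4.3 were used with hg19, and their settings are not given in the sources used here. The authors deposited a normalized signal per gene and library, a likelihood ratio score, a mean abundance and a fold change, both log2, and a p-value with its false discovery rate. Divided by the value of 1 read, every deposited signal value was whole within 0.001, so it is a CPM on an effective library size. The authors' p-value, score and abundance were not used.

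Genes that reached 1 CPM in 2 or more libraries were fitted by limma 3.58.1 (R 4.3.3, intensity trend) on log2(CPM + 1) over all 17768 genes, called at an adjusted p under 0.05. Knockdown and hairpins were fitted with the line as a block and the lines with the arm as a block. Each arm holds both lines. Deviations from the arm means, which here are the difference between the lines, correlated between arms at 0.363 to 0.654. The knockdown fit was also run on simulated counts, and the outcome is not reported here. edgeR 4.0.16 and DESeq2 1.42.0 ran on the recovered reads as alternatives, beside 2 pseudocounts, 2 filters, 2 scalings, no trend, no block, and each library left out. Named were fixed lists, called genes with a mean of at least 3 CPM, the 8 highest, members detected in 1 arm or line, and the smallest p of tests without calls; LINC01234, LINC00571, LINC01487 and the neighbours and promoters shown were singled out after their values were seen. Members and lists were chosen with earlier results of these data known. Annotation is GENCODE v29 on GRCh38 and sequences are from it and RefSeq; hg19 positions were not used. BLAST 2.17.0 compared transcripts. The letters of the stretch shared with ESRG are not reported here.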

Additional observations from a re-analysis of the deposited data

How the results depend on the processing

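With a pseudocount of 4 the rises were 4, with 0.25 they were 7, and the falls were between 5 and 7 over the filters, scalings, pseudocounts, edgeR and DESeq2. Leaving out 1 library gave 0 to 7 rises and 1 to 11 falls, 0 to 6 genes higher and 1 to 15 lower in HES2, and 0 to 6 differing between hairpins. Genes higher in HES2 numbered 1 at a filter of 5 CPM, 0 without the trend, 0 with no replicate block (no arm term) and 1 by DESeq2, and genes lower in HES2 2 without the trend and 1 with no block. Without the line as replicate block knockdown gave 4 rises and 4 falls. DESeq2 called 1 gene between hairpins. The interaction had no member called in any alternative that could be fitted; it could not be fitted without the block or without a shLuc library, since no control of that line is then left. The cause of these shifts was not tested. Of the 57 knockdown fold changes recomputed for single LINC genes, 8, none of them called, changed sign in at least 1 alternative, and none of the 7 line differences did. With 1 library left out, LINC02084 (-0.018 on the log2 scale) was between -0.275 and 0.238, and it was 0.0126 with a pseudocount of 4 and 0.125 by edgeR. LINC01137 (0.16) was between -0.823 and 1.14, and -0.075 by DESeq2. The other ranges with a library left out were -1.88 to 0.464 for LINC01124 (-0.71), -0.0898 to 0.919 for LINC00346 (0.41), -0.574 to 0.097 for LINC01487 (-0.24), -0.486 to 0.103 for LINC01126 (-0.19), -0.301 to 0.062 for LINC00621 (-0.12) and -0.233 to 0.066 for LINC02210 (-0.079). The libraries whose omission turned the sign were H9 shLuc for LINC01124, LINC00346, LINC01137 and LINC02084, HES2 shLuc for LINC01487 and LINC01126, H9 shDDX18#1 for LINC00621, LINC02210 and LINC02084, H9 shDDX18#3 for LINC01137 and HES2 shDDX18#3 for LINC01126. The cause of these reversals was not tested. With 1 library per line and arm, a library left out leaves a lone sample that is assumed to vary like the others. Of the 35 members below 1 CPM limma called none with knockdown, and edgeR called 1 as risen, LINC02588. Of all 900 genes below 1 CPM limma called 1 as risen and 14 as fallen.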
